A study of Mus musculus with 4 samples.

Results

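Heat shock proteins and their DnaJ partners were followed in NIH 3T3 cells, a mouse fibroblast line, in which selenoprotein T (Selt, now Selenot) was targeted by RNA interference. The members were the probes whose gene symbol starts with Dnaj or with Hsp followed by a, b, d, e or h, or names an HSP90 gene, without Hspa5, Hsp90b1 and Hspg2. This gave 80 of 22534 probes, for 54 of 12347 genes named by a single-gene probe. Cytosolic chaperones made up most of them, but the symbols also brought in mitochondrial members such as Hspd1 and Hspe1 and DnaJ proteins of the endoplasmic reticulum (ER) such as Dnajb11, so the set is not confined to the cytosol. The rule reads gene symbols only.

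On each of 4 two-colour arrays the Cy5 channel held RNA of cells selected for a knockdown construct, and the Cy3 channel RNA of cells selected for the empty pU6-m3 vector. siSelT-1, aimed at nucleotides 205 to 224 of the Selt mRNA, and siSelT-5, aimed at nucleotides 971 to 989, had 2 arrays each, made at different times from separate cultures of knockdown cells. All cells, vector cells included, were kept under 150 µg/ml hygromycin B with 10% fetal bovine serum and 100 nM sodium selenite. Whether they were clones or pools, and whether arrays shared a vector culture, is not stated. A value is the log ratio of the channels, read here as log2. It is likely knockdown over vector, from the order of the names in the sample titles and the dyes. The dyes were never swapped, so a dye effect on a probe would enter every ratio to vector and cancels only between constructs. In RNA of whole cultures, fewer cells of a kind and less RNA per cell cannot be told apart.

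The siSelT-1 arrays held 7689 and 9232 values and the siSelT-5 arrays 20268 and 18361. The probes measured on all 4 arrays had medians of 0.19, 0.09, 0.43 and 0.36, above 0 throughout. Counts are therefore given as deposited and also centred, that is, with the median of those 7038 probes set to 0 on each array, which takes off 0.14 on average for siSelT-1 and 0.39 for siSelT-5. Values on all 4 arrays were present for 8 of 14 fibroblast markers, 2 of 4 endothelial, 1 of 5 macrophage, 0 of 4 epithelial, 1 of 4 muscle and 1 of 4 adipocyte markers. Their median ratios over both constructs were 0.11 for fibroblast, 0.71 for endothelial, -0.20 for macrophage, 0.44 for muscle and 0.64 for adipocyte markers. Ratios do not give levels, so the cell type could not be checked further, and the part of other cell types in the results was not tested. No probe with a name carried Selt, and its own level was not analysed here.

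HSP70 proteins hold unfolded stretches of other proteins and release them in a cycle driven by ATP. DnaJ (HSP40) proteins bring clients to HSP70 and start the hydrolysis, and nucleotide exchange factors such as the HSP110 proteins reset it. HSP90 takes over partly folded clients, kinases and steroid receptors among them, small heat shock proteins keep aggregates soluble, and HSP60 with its HSP10 lid folds proteins inside mitochondria. Many of these genes are switched on by the heat shock factor HSF1, which binds repeats of a short unit, GAA and its complement TTC, at gene starts.

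Some of these repeats are shown for members that carry them near the start, as a description of the starts. RefSeq windows of the GRCm38.p6 build, 250 bases before to 50 after each annotated start, were found for 43 of the 54 genes. The 3-unit forms GAANNTTCNNGAA and TTCNNGAANNTTC, each the complement of the other strand, so that both strands are read, stood in windows of 4 of the 43 genes: Hspd1, Hspe1, Dnajb6 and Hsph1. Of all 27025 genes with a window 0.662% held one. The 2-unit form GAANNTTC, part of both longer forms, was in windows of 8 of the 43 genes, against 9.04% of all genes, and TTCNNGAA in 6, against 9.60%. By window the shares were 0.603%, 7.86% and 8.52% of 32851. In the following stretches of 30 bases, capitals mark the matching letters, 5′ to 3′ on the strand of the gene.
Hspe1, chr1:55088051-55088080, plus strand, matching letters from 89 bases before the start: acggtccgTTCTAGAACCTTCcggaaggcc
Dnajb6, chr5:29735844-29735873, plus strand, matching letters from 46 or 127 bases before its 2 starts: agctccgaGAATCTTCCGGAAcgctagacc
Hsph1, chr5:149636279-149636308, minus strand, matching letters from base 16 after the start: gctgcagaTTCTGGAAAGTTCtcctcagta
Dnaja1, chr4:40722333-40722362, plus strand, a 2-unit match from 124 bases before the start: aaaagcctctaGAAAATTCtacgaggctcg
Hspb8, chr5:116422844-116422873, minus strand, a 2-unit match from base 3 after the start: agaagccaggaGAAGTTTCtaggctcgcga
The Hspe1 match runs on into a second, overlapping one, and the same bases lie in a window of Hspd1, its neighbour on the other strand. The 2-unit matches of Dnajc27, Dnajc5g, Dnajb4 and Dnajc10 are not shown. Hsp90aa1, Hspa8 and Dnajb1 are not among the members with a match, though not every member had a window. A match is only a description of letters, and binding was not measured. Whether the ratios go with the matches was not tested.

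Probes with a value on all 4 arrays were found for 30 of the 54 genes, 22 with 1 such probe and 8 with more. Of the other 24, 20 had no value on either siSelT-1 array and 4 had values on a part of the arrays of both constructs. The 30 genes were tested in one limma fit over 4754 genes, with 0.05 as the limit for the Benjamini-Hochberg adjusted p. Rose and fell are used for genes past that limit.

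Against vector, averaged over both constructs, the mitochondrial folding chamber, the DNAJA proteins and the small heat shock protein Hspb8 stood at the top of the set, and the inducible HSP90 gene Hsp90aa1 at the bottom. Of the 30 genes 14 rose and 1 fell. This is 46.7% higher and 3.33% lower, against a background of 45.7% and 8.04% over all genes, so the share that rose lay near the background. The median ratio was 0.28, beside 0.25 over all genes. After centring 6 rose and 5 fell (background 20.5% and 21.9%), with a median of 0.02 beside -0.02. The 6 were Hspd1, Hspe1, Hspb8, Dnaja2, Dnaja1 and Dnajc8, and the 5 were Hsp90aa1, Hspa2, Dnajc7, Hspb11 and Dnajc10. Hsp90aa1 alone was lower on both scales. The count moved widely with the arrays kept, for the members and for all genes. Fewer passed without either siSelT-1 array, and more passed without either siSelT-5 array. Such a fit has a lone array for 1 construct, so its counts are not given.

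Among the members the HSP90 family was represented by Hsp90aa1, the stress-inducible cytosolic form. Its constitutive sister Hsp90ab1, the stress-inducible HSP70 genes Hspa1a and Hspa1b and the small heat shock gene Hspb1 were not analysed here. Trap1, the mitochondrial HSP90, falls outside the symbol rule and is given with the partners, where it rose. The ratios of Hsp90aa1 were -0.43 and -0.41 with siSelT-1 and -0.35 and -0.39 with siSelT-5. All 4 arrays were low, and it had the smallest spread over the 4 arrays of any gene in the set, with a mean of -0.39 ± 0.03 (SD, n = 4), or 0.762 of vector. Its adjusted p was 0.00815 as deposited and 0.00479 centred. For siSelT-5 alone it fell (adjusted p = 0.0310), and for siSelT-1 alone it missed the threshold as deposited (0.0549) and fell after centring (0.0384). The gene value averages 2 probes, and each of them varied more over the arrays than this average. On siSelT-5 replicate 1 they read 0.02 and -0.72, so the small spread is not that of a single probe. One stood at -0.47 with siSelT-1 and -0.58 with siSelT-5 and passed when fitted by itself (adjusted p = 0.00551), and the other, at -0.36 and -0.16, did not (0.0645). A further probe, measured on the siSelT-5 arrays alone, read -0.78 and -0.52. Over all its probes and arrays the 1 value above 0 was 0.02, on siSelT-5 replicate 1.

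Among the 4 cytosolic HSP70 and HSP110 genes tested the constitutive Hspa8 rose (25%, background 45.7%) and none fell as deposited. Hspa8, the everyday HSP70 of the cytosol, had ratios of 0.39 and 0.20 with siSelT-1 and 0.73 and 0.45 with siSelT-5, with a mean of 0.44 ± 0.22 (SD, n = 4, adjusted p = 0.0101). It did not pass after centring (0.117). A further Hspa8 probe, without a value on siSelT-1 replicate 1, read 0.69, 1.30 and 1.19 on the other arrays, above the tested value on each. Hspa2, a form best known from male germ cells, had ratios of -0.09 and -0.26 with siSelT-1 and -0.21 and -0.69 with siSelT-5. All 4 lay below 0, its adjusted p was 0.0518 as deposited and 0.00987 centred, and for siSelT-5 alone it was 0.0495. Hsph1, an HSP110 exchange factor and a classical heat shock gene, read -0.20 and 0.09 with siSelT-1 against 0.35 and 0.82 with siSelT-5. The constructs did not overlap for it, and it passed for siSelT-5 alone as deposited (adjusted p = 0.0252) but not for both (0.0936).

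Hspa4, the other HSP110 exchange factor tested, gave a mean near 0, at 0.07, over probes that disagreed. One probe read 0.28 and 0.23 with siSelT-1 and 0.99 and 0.71 with siSelT-5, and passed as higher when probes were fitted singly (adjusted p = 0.00466). The other read -0.54, -0.12, -0.51 and -0.47 on the same arrays and passed as lower (0.0181). The level of this gene is therefore reported as unsettled. Which part of the transcript each probe reads is not given in the sources used here.

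Of the 3 mitochondrial HSP70 and chaperonin genes 3 rose and 0 fell (background 45.7% and 8.04%), with a median of 0.72. After centring 2 passed as higher (background 20.5%). Hspd1, the HSP60 barrel, had ratios of 0.40 and 0.31 with siSelT-1 and 1.14 and 1.26 with siSelT-5, and a mean of 0.78 ± 0.49 (SD, n = 4), or 1.71-fold, with an adjusted p of 0.00178. The siSelT-5 arrays stood well above the siSelT-1 arrays. Both of its probes were in this order, at 0.49 against 1.31 and at 0.22 against 1.09, and each passed by itself (0.00184 and 0.00260). Hspe1, the HSP10 lid that caps the barrel, read 0.49 and 0.42 with siSelT-1 and 1.00 and 0.99 with siSelT-5, or 1.65-fold (adjusted p = 0.00186). Like Hspd1, it was higher on both siSelT-5 arrays than on both siSelT-1 arrays, an order seen in 52.6% of all genes. Hspa9, the HSP70 of the mitochondrial matrix, rose less, reading 0.26 and 0.29 (siSelT-1) and 0.67 and 0.55 (siSelT-5) (adjusted p = 0.00610), and did not pass after centring (0.0971).

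Of the small heat shock proteins, Hspb8, which works with Bag3 in clearing misfolded proteins, rose. It read 0.60 and 0.51 with siSelT-1 and 0.76 and 0.93 with siSelT-5, for a mean of 0.70 ± 0.19 (SD, n = 4), or 1.62-fold (adjusted p = 0.00213). With Hspe1 it was 1 of the 2 members that passed for siSelT-1 alone, at an adjusted p of 0.0381 against 0.0485, and after centring neither did. Hspb11, a part of the ciliary transport machinery that carries the family's name, read -0.37 and -0.04 with siSelT-1 and -0.07 and -0.29 with siSelT-5. Its groups overlapped and it passed only after centring (adjusted p = 0.135 and 0.0186). Hspbp1, an exchange factor of HSP70, stood at 0.22 and did not pass (0.172).

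The DNAJA genes, general partners of HSP70, were higher on their tested probes. Of the 3, 3 passed (background 45.7%), and 2 after centring (background 20.5%). Further probes of Dnaja2 and Dnaja3, with siSelT-5 values alone, lay below 0. Dnaja2 read 0.42 and 0.24 with siSelT-1 and 0.82 and 0.90 with siSelT-5, for 1.51-fold (adjusted p = 0.00302). Dnaja1 read 0.16 and 0.21 against 0.80 and 1.15 (0.00450), and its centred adjusted p lay at the threshold, at 0.04997. In both the siSelT-5 arrays were above the siSelT-1 arrays. Dnaja3, the mitochondrial form, had closer constructs, at 0.47 and 0.49 (siSelT-1) and 0.74 and 0.32 (siSelT-5). It passed as deposited (0.00852) and not after centring (0.0838).

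Of the 4 cytosolic and nuclear DNAJB genes tested, Dnajb2 alone passed (25% higher, background 45.7%). Their median was 0.21, and centring brought it to -0.06, where Dnajb2 did not pass either (adjusted p = 0.637). Dnajb1, the heat-inducible HSP40 and the standard partner of stress HSP70, read 0.17 and -0.01 with siSelT-1 and -0.17 and 0.43 with siSelT-5. Its constructs overlapped and its mean of 0.11 ± 0.26 (SD, n = 4) did not pass (adjusted p = 0.484). Dnajb2, which binds ubiquitinated clients, read -0.11 and -0.06 with siSelT-1 and 0.62 and 0.81 with siSelT-5 (0.0201). Dnajb4 read 0.48, 0.02, -0.03 and 0.77 and did not pass (0.143).

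Dnajb6, known for holding back the aggregation of polyglutamine proteins, was the second gene whose probes disagreed. Its first probe read -0.07, 0.35, 0.83 and 1.04 over siSelT-1 and siSelT-5 and passed by itself as higher (adjusted p = 0.00862). Its second read -0.49, -0.19, -0.20 and -1.06 and passed as lower (0.0446). Its remaining probe, at -0.17, -0.09, 0.23 and 0.11, did not pass (0.852). The gene values of -0.24, 0.03, 0.29 and 0.03, with a mean of 0.02 (adjusted p = 0.838), thus average probes of opposite sign.

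Cytosolic and nuclear DNAJC genes, which carry the J domain into special tasks, rose in 4 of 5 cases (80%, background 45.7%). After centring 1 passed as higher and 1 as lower (background 20.5% and 21.9%). All 4 that rose also had further probes with siSelT-5 values alone, and these lay below 0, as did most such probes of the whole table. Dnajc8, found with splicing factors, read 0.36 and 0.20 with siSelT-1 and 0.70 and 0.94 with siSelT-5 (adjusted p = 0.00433, centred 0.0433). Dnajc5, the cysteine string protein of secretory vesicles, read 0.02 and -0.07 against 0.89 and 0.61 (0.0169). Dnajc2, which sits on the ribosome, read -0.05 and -0.12 against 0.78 and 0.68 (0.0169). Dnajc6, the auxilin that strips clathrin from vesicles, read -0.05 and -0.13 against 0.75 and 0.56 (0.0307). In these last 3 genes the siSelT-1 arrays lay near 0 and the siSelT-5 arrays carried the ratio.

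Dnajc7, which binds both HSP70 and HSP90, had the opposite order of constructs. It read 0.11 and 0.08 with siSelT-1 and -0.23 and -0.74 with siSelT-5. It was the 1 member of 30 with both siSelT-1 arrays above 0 and both siSelT-5 arrays below, beside 3.07% of all genes. It fell for siSelT-5 alone (adjusted p = 0.0400, centred 0.0114).

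Dnaja3, a mitochondrial DnaJ protein that passed, was counted above with the DNAJA genes. Among the 4 ER and 3 other mitochondrial DnaJ genes Dnajc30 alone passed over both constructs. The background was 45.7% higher and 8.04% lower. The 4 ER genes had a median of 0.25, or -0.02 after centring, and adjusted p-values for both constructs of 0.0536 for Dnajb12, 0.0586 for Dnajb11, 0.0784 for Dnajc25 and 0.277 for Dnajc10. Dnajb11, a partner of the ER HSP70, read -0.25 and 0.11 with siSelT-1 and 0.51 and 0.75 with siSelT-5 and passed for siSelT-5 alone (adjusted p = 0.0133), as did Dnajb12 of the ER membrane, with -0.04 and -0.11 against 0.47 and 0.57 (0.0108). Dnajc10, an ER disulfide reductase, read -0.19 and -0.41 against 0.22 and -0.20 and was lower after centring (0.0200). Its gene values average unlike probes, one at -0.49, -0.74, 0.36 and -0.26 and the other at 0.12, -0.07, 0.08 and -0.15, neither of which passed by itself as deposited (0.107 and 0.968). Dnajc25 had 0.36, 0.08, 0.59 and 0.11, with overlapping constructs. Of the mitochondrial ones Dnajc30 passed at a mean of 0.54 (0.0169), but its probes differed: one was at 1.07 and 0.97 with siSelT-1 and 0.84 and -0.85 with siSelT-5, the other at 0.35, 0.31, 0.63 and 0.95. Dnajc19, related to a subunit of the mitochondrial import motor, and Dnajc4 stood at 0.16 and 0.05 and did not pass (0.172 and 0.642).

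**Figure D1:**
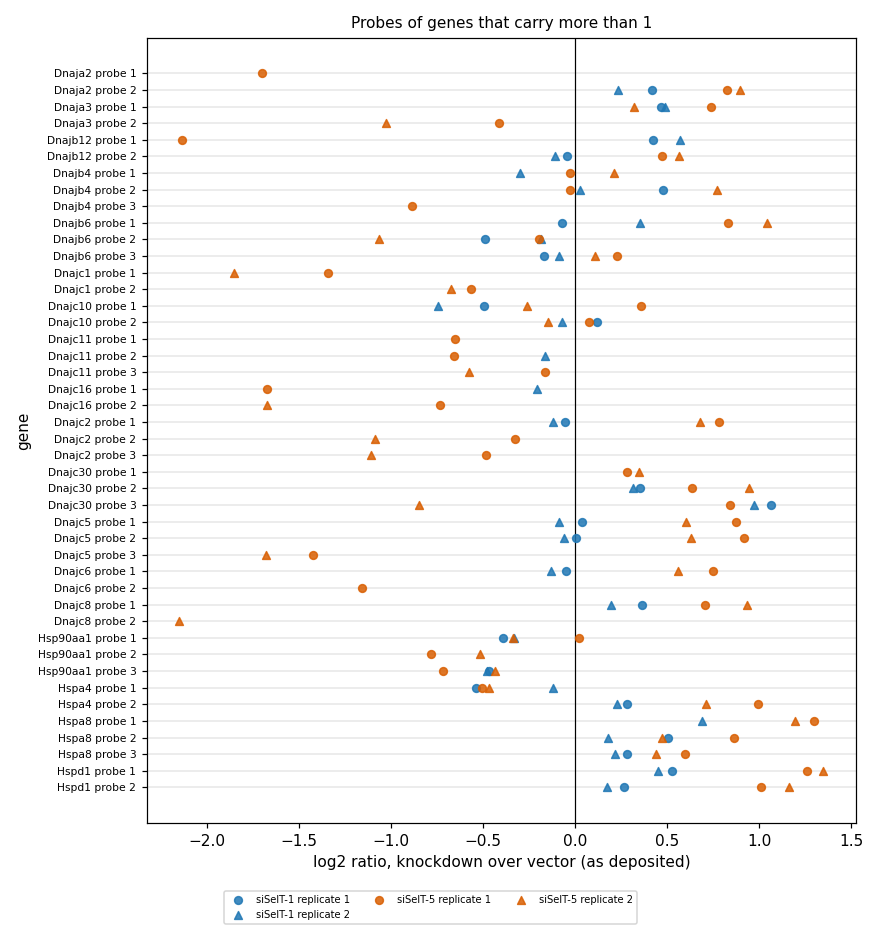
Log2 ratios of every probe of the 18 heat shock and DnaJ genes that had more than 1 probe, with each array as in the legend; a probe without a point for an array had no value there. Probes of Hspa4 and Dnajb6 lie on both sides of 0, those of Hspd1 and Hspa8 all lie to the right, and further probes of Dnajc2, Dnajc5 and Dnaja3 with siSelT-5 values alone lie to the left.

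Taken one construct at a time, few of these genes passed on the siSelT-1 arrays. There, 2 of the 30 rose and 0 fell (6.67% higher, against a background of 10.3% higher and 3.37% lower), with a median of 0.07 beside 0.14 over all genes. After centring 0 rose and Hsp90aa1 fell, against 3.83% and 5.07%. Fewer passed, here and over all genes, when either siSelT-1 array was left out. More passed in both when either siSelT-5 array was, where the spread comes from the siSelT-1 pair. In a fit with 1 array left out, the lone array of that construct is assumed to vary like the other construct. With the replicate number as a block the count was 0 of the 30 genes and 35 of all 4754. The arrays of siSelT-1 were closer to each other over the 30 genes (root mean square SD 0.132) than those of siSelT-5 (0.255).

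For siSelT-5, 16 of the 30 genes rose and 3 fell (53.3% and 10.0%, background 47.6% and 6.29%), with a median of 0.53 beside 0.37 over all genes. After centring 8 rose and 4 fell (background 19.2% and 20.0%), and the median was 0.13. The 8 were Hspd1, Hspe1, Hspb8, Dnaja1, Dnaja2, Dnajc8, Dnajc5 and Dnajc2, and the 4 were Hsp90aa1, Hspa2, Dnajc7 and Hspb11. With either siSelT-1 array left out fewer passed, here and over all genes. Since every array is a ratio to vector cells, these 2 comparisons may share control RNA and are given side by side, not as support for each other.

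The constructs were also compared directly, where a dye effect cancels. In 19 of the 30 genes both siSelT-5 arrays lay above both siSelT-1 arrays, against 52.6% of all genes, and in 1, Dnajc7, both lay below, against 11.9%. limma called 0 members for siSelT-1 minus siSelT-5, and the background was 0.0210% higher and 0.0421% lower on both scales. An unadjusted limma p below 0.05 was found for 13 of the 30 members and for 1697 of all 4754 genes. The smallest adjusted p among members was 0.0543, for Hspd1, whose difference was -0.84 ± 0.15 (SE). Dnajc2 followed at -0.82, Dnajb2 at -0.80 and Dnajc6 at -0.74, with adjusted p-values of 0.0546, 0.0546 and 0.0557. After centring these differences were -0.59, -0.56, -0.55 and -0.49. Both siSelT-1 arrays were below 0 and both siSelT-5 arrays above 0 in 5 members, Dnajc2, Dnajb2, Dnajc6, Dnajb12 and Dnajc4, against 9.51% of all genes. Leaving out either siSelT-5 array gave more calls for the difference, among the members and among all genes. Leaving out a siSelT-1 array did not.

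Values on siSelT-5 arrays without any on siSelT-1 were kept apart. They came from 21 probes with both siSelT-5 values and 13 with 1. Whether a probe was dim is not given in the sources used here. Of the 21 probes 18 averaged below 0, with a median of -0.71, beside 82.7% and -0.63 among the 7460 such probes of all genes. The members measured on all 4 arrays had a median siSelT-5 ratio of 0.53, beside 0.38 for all probes of that kind. The sign of a siSelT-5 ratio thus went with the class of the probe in the members as in the whole table, and the part of this in each value was not tested.

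A fit of the 16232 probes with both siSelT-5 values called 8 of the 21 probes lower (38.1%) and 0 higher. The background among the siSelT-5-only probes was 35.0% lower and 1.14% higher, so the share that was lower lay near it, and over all 16232 probes it was 17.7% and 10.5%. With each array centred on the median of the siSelT-5-only probes it called 4 lower (19.0%) and 1 higher (4.76%), against 12.7% and 13.3% of that class. The lowest were a probe of Dnajc1, an ER DnaJ protein at the ribosome, at -1.34 and -1.85, Hspb2, a small heat shock protein of muscle, at -1.32 and -1.86, and a probe of Dnajc5 at -1.42 and -1.68. These 3 were also called after centring (limma, adjusted p 0.0199 to 0.0236), together with Dnajb13, a testis form, at -1.65 and -1.22 (0.0349). Dnajb9, an ER DnaJ protein induced by ER stress, read -0.82 and -1.74, and Dnajc16 -0.74 and -1.67. Both were called as deposited (0.0322 and 0.0365) and not after centring (0.109 and 0.146). The other 2 called as deposited only were Hspa12b, at -0.99 on average, and Dnajc18, at -1.16. The highest was a probe of Dnajc30, at 0.28 and 0.35, followed by Dnajc17, Dnajc22, Dnajb8, Dnajc11 and Hspa14 at means of 0.09, 0.07, -0.09, -0.37 and -0.54. None of these 6 passed as deposited, and Dnajc30 was higher after centring (0.0188).

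**Figure D2:**
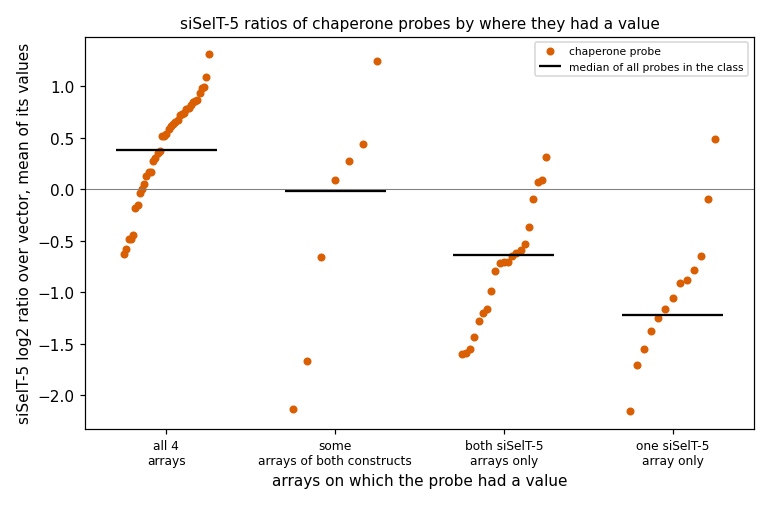
Mean siSelT-5 log2 ratio over vector of each chaperone probe, by the arrays on which it had a value; the black bar is the median of all probes of the table in that class. The bars fall from 0.38 for probes on all 4 arrays over -0.02 for those on a part of both constructs' arrays to -0.63 for those on both siSelT-5 arrays alone and -1.22 for those on 1, and the chaperone probes scatter around them.

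The same contrast appeared within genes. Of 9 tested members with further probes on siSelT-5 alone, 8 had a tested siSelT-5 mean above 0, and in 7 of these the further probes averaged below 0, beside 85.2% over all such genes. Dnajc2 read 0.78 and 0.68 on its tested probe and -0.49, -1.11, -0.33 and -1.09 on its further probes. Dnajc5 read -1.55 on average on its further probe, against 0.75 for the tested ones, and Dnaja3 -0.72 against 0.53. Dnajc30, at 0.31 on its further probe, kept its sign. The siSelT-5 ratios of Dnajc2, Dnajc5 and Dnaja3 therefore rest on the choice of the probes measured with both constructs. So do those of Dnaja2, Dnajc8 and Dnajc6, whose further probes had 1 siSelT-5 value each, at -1.70, -2.15 and -1.16.

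The 13 probes with 1 siSelT-5 value came from 13 genes and carry no spread. They ran from -2.15 for a further probe of Dnajc8 to 0.49 for Dnajc15, of the mitochondrial inner membrane. Their median was -1.06, beside -1.22 over the 5557 such probes of the whole table. Below 0 were 12 of the 13, near the 92.5% of that class. Further probes of Dnaja2, Dnajc6 and Dnajb4 were among them, at -1.70, -1.16 and -0.88, against siSelT-5 values of 0.82 and 0.90, of 0.75 and 0.56 and of -0.03 and 0.77 on the tested probes. Hspa13, Hspa4l, Dnajc14, Dnajc24, Dnajc28, Dnajc5g and Dnajc3, the ER-linked inhibitor of the kinase PERK, were measured by such a probe only, at -0.91, -1.06, -1.25, -0.79, -1.37, -1.55 and -0.10. A further 7 probes had values on a part of the arrays of both constructs. Among these, Dnajc27 read 0.63 on siSelT-1 replicate 2 and 0.10 and 0.78 with siSelT-5, Hspbap1 read -0.20, 0.33 and 0.21 on the same arrays, and a second Dnajb12 probe read 0.42 and 0.57 with siSelT-1 and -2.14 on siSelT-5 replicate 1, against -0.04, -0.11 and 0.47 for the tested one. Dnajb14, Dnajb5 and Dnajc1's second probe, with both siSelT-5 values, stood at -0.59, -0.71 and -0.62.

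The partners of these chaperones were described from a list of 50 genes, of which 45 were on the arrays and 33 were tested. Of the 33, 22 rose and 0 fell over both constructs, with a median of 0.41 beside 0.25 over all genes and the background of 45.7% and 8.04% given above. After centring 10 rose and 4 fell (background 20.5% and 21.9%), with a median of 0.15. Leaving out either siSelT-1 array gave fewer calls in limma, for the partners and for all genes. For siSelT-1 alone 5 rose (15.2%, background 10.3%) and for siSelT-5 alone 21 (63.6%, background 47.6%). In either 0 fell (background 3.37% and 6.29%).

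The cytosolic chaperonin TRiC, which folds actin and tubulin, and prefoldin, which feeds it, rose in 7 of 11 genes (63.6%, background 45.7%). After centring 3 were higher and 1 lower (background 20.5% and 21.9%). Tcp1, a TRiC subunit, read 0.51 and 0.50 with siSelT-1 and 1.28 and 1.19 with siSelT-5. Pfdn5, of prefoldin, read 0.57 and 0.59 against 1.08 and 1.15, and the TRiC subunit Cct8 read 0.79 and 0.91 against 0.90 and 0.78. Their adjusted p-values were 0.00161, 0.00161 and 0.00162, and Cct8 alone of the 3 had overlapping constructs. HSP90 co-chaperones, a group that here also holds the mitochondrial HSP90 Trap1, rose in 6 of 11 cases (54.5%, near the 45.7% of all genes). After centring 3 were higher and 2 lower. Trap1 read 0.14 and 0.30 with siSelT-1 and 0.59 and 0.61 with siSelT-5 (adjusted p = 0.00806). It did not pass after centring (0.189). Fkbp4, which joins HSP90 to steroid receptors, read 0.34 and 0.25 against 1.08 and 1.42 (0.00227), and Ptges3, the p23 protein that holds closed HSP90, 0.50 and 0.40 against 0.74 and 0.84 (0.00251). Stip1, which links HSP70 to HSP90, averaged 0.78 (0.00304) and was chosen after its value was seen.

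HSP70 co-chaperones rose in 6 of 7 cases (85.7%, background 45.7%), 2 of them also after centring (background 20.5%). Bag1, an exchange factor, read 0.32 and 0.29 with siSelT-1 and 1.14 and 0.84 with siSelT-5 (adjusted p = 0.00300). Bag3, the partner of Hspb8, read 0.46, 0.29, 0.39 and -0.05 and did not pass (0.0692). Among other chaperones Cryab, a small heat shock protein outside the symbol rule, read 0.37 and 0.58 against 1.10 and 1.26 (0.00181), and Serpinh1, the collagen chaperone of the ER, 0.46 and 0.38 against 0.96 and 1.00 (0.00195). Of the heat shock factors themselves none was tested. Hsbp1, which binds HSF1, read -0.09 and 0.08 against 0.46 and 0.59 (0.0403) and stood at -0.01 after centring.

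**Figure D3:**
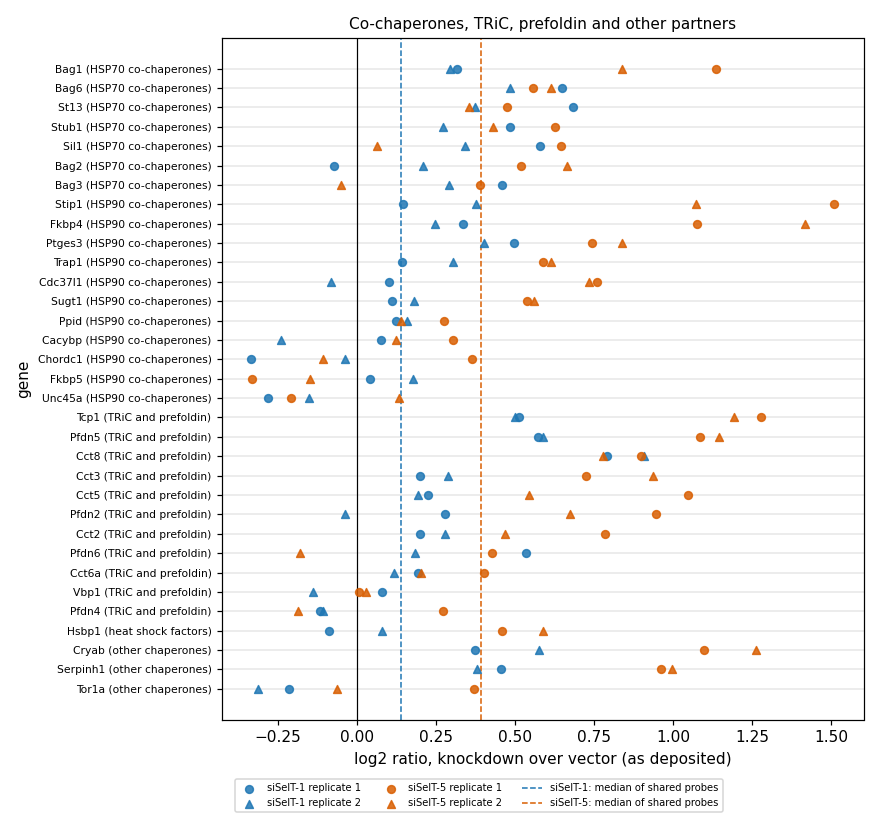
Log2 ratios of knockdown over vector for the 33 tested partners of the chaperones, by group, with arrays and dashed medians drawn as for the chaperones themselves. Tcp1, Pfdn5, Cct8, Cryab and Serpinh1 lie to the right of 0 on all 4 arrays, and Unc45a, Chordc1, Tor1a and Fkbp5 lie around or below 0.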

How the data were processed

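The deposited table gives, for each array, log ratios of its channels, read here as log2 from their range; the base, background correction, normalization and filter are not given in the sources used here, and base 10 would change every fold. The authors' table has 22534 probes. Platform annotation named 1 gene for 18129, several for 140 and none for 4265; Entrez identifiers matched 18041 to GRCm38.p6 RefSeq symbols. Genes were tested with limma 3.58.1 in R 4.3.3 (lmFit, eBayes) on the mean of probes with values on all 4 arrays, as 2 construct means with 2 residual degrees of freedom, adjusted by Benjamini-Hochberg over 4754 genes, two-sided. The siSelT-5-only probes were fitted per probe over 16232 probes. The procedure was tested on simulated data. Whether the ratios carry the spread between vector cultures is not stated, and 4 arrays limit the precision. Members, roles and partner lists were chosen with earlier results of these data known. Values per array are given for core chaperones, the 6 highest and 6 lowest members, the 4 smallest p for the difference, the 6 highest and 6 lowest siSelT-5-only probes and up to 8 partners; other values printed were picked with the values in view. Alternatives were centring, array scaling, single probes, unnamed probes, a looser filter on missing values, robust eBayes, array weights, a replicate block and each array left out.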

Additional observations from a re-analysis of the deposited data

How the results depend on the processing

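With 2 arrays a construct, counts moved with the setting. Of the 30 chaperone genes, 15 passed for both constructs, and 0 to 25 with 1 array left out. For siSelT-1 the count of 2 became 1 centred, 7 centred and scaled, 1 by single probes, 0 under the looser filter, 10 with array weights and 0 to 11 with 1 array left out. For siSelT-5 the count of 19 became 12 centred, 8 scaled and 12 to 21 with 1 array left out. For the difference array weights called 3, and leaving out 1 array 0 to 16. The partners' 22 became 14 centred and 0 to 27 with 1 array left out, and the 8 probes on siSelT-5 alone became 5 centred. What arrays of the same replicate number shared is not stated. Their deviations correlated at 0.0758 over genes, and 2 arrays a construct cannot show whether a batch was shared. With the replicate block 19 chaperone genes passed for both constructs, 0 for siSelT-1, 19 for siSelT-5 and 0 for the difference. Over all genes the block called 2558, 35, 2566 and 0 in that order. Single probes called 22 of 39 for both constructs, beside 3292 of all 6251. Means over both constructs changed sign when centred, then also scaled, for Dnajb1 (-0.16 and -0.16), Dnajb12 (-0.045 and -0.091), Dnajb6 (-0.24 and -0.25), Dnajc19 (-0.10 and -0.10), Dnajc4 (-0.22 and -0.23), Hspa4 (-0.19 and -0.20), Hspbp1 (-0.051 and -0.055) and Hsph1 (-0.0011 and -0.054). Scaling alone turned Dnajb11 (-0.043), Dnajb2 (-0.015), Dnajc2 (-0.0087) and Dnajc6 (-0.042). A single probe turned Dnajb6 (-0.48) and Hspa4 (-0.41), and the looser filter turned Dnajb12 for siSelT-5 (-0.13). With 1 array left out Dnajb1 ran from -0.044 to 0.26, Dnajb6 from -0.043 to 0.092 and Dnajc4 from -0.0014 to 0.097. The causes were not tested. Signal over background is not given in the sources used here, so what dim probes limit is unknown.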
